A study of Arabidopsis thaliana with 8 samples.

Results

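The comparison described here sets Arabidopsis thaliana seedlings that had recovered for 84 h at 22 °C (LHSR84) against seedlings taken at the end of 30 h at 37 °C (LHS). It covers all 64512 loci of the expression table, 33323 gene loci and 31189 transposable element loci, in 4 of the 8 libraries. Both groups are wild type of the Columbia ecotype, grown to an age label of 7 days, and no transgene or mutant enters either group. The age label is the same in every group of the series, although LHSR84 was taken 84 h after the end of heat and LHS at its end. Seedling development over these 84 h and the recovery cannot be told apart, also where LHSR84 is set against unheated seedlings. LHSR84 seedlings went through the same 30 h at 37 °C before they were returned to 22 °C. The series also holds unheated seedlings (CTRL) and seedlings after 12 h of recovery (LHSR12). They are used to place the ends of the comparison, and they enter the shared estimate of spread. Each group has 2 libraries of total RNA from whole seedlings. No label ties the libraries to separate cultures or plants. A p-value here therefore reflects how far the 2 libraries of a group differ, pooled over CTRL, LHS, LHSR12 and LHSR84, which may be technical. In whole seedlings, fewer cells of a type and less RNA per cell cannot be told apart.

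Plants answer high temperature through heat shock factors, transcription factors that bind heat shock elements in promoters and switch on chaperones. Small heat shock proteins hold unfolding proteins, HSP101 pulls aggregates apart, and HSP70 and HSP90 refold and mature client proteins. After heat, plants are known to clear chaperone transcripts, and survival depends on photosynthesis and cell division being restored. The same temperature also releases ONSEN, a retrotransposon whose long terminal repeats carry heat shock elements.

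Values are scaled reads, the authors' read counts divided by a factor per library. Of the 64512 loci, 27638 with a mean of at least 1 scaled read were tested, 24624 gene loci and 3014 element loci. Fold changes are on the log2 scale of scaled reads plus 1, which understates the change of low genes, and a locus is called at an adjusted p (limma) below 0.05. Reads at gene loci numbered 18.9 M to 28.3 M (M for 1e6) in the 7 libraries for which the recovery of whole reads could be checked. The summed scaled reads of LHS replicate 1, whose factor is too close to 1 for that check, were 25.4 M. The 2 libraries of a group differed by a median of 0.2 in LHS and 0.18 in LHSR84 on the log2 scale.

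The end of heat and 84 h of recovery differed over most of the transcriptome. Of the tested gene loci, 16888 were called, a background of 68.6%. LHSR84 was higher at 8399 of them (34.1%) and lower at 8489 (34.5%), so the changes were about evenly divided in number and the median log2 fold change of gene loci was -0.01. A change of at least 2-fold was called at 11402 gene loci (46.3%), 6132 higher (24.9%) and 5270 lower (21.4%). Against the unheated control, LHSR84 was called at 3512 gene loci (14.3%), 2201 higher (8.94%) and 1311 lower (5.32%). A list of genes is therefore read below against 34.1% higher and 34.5% lower, not against 0.

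**Figure D1:**
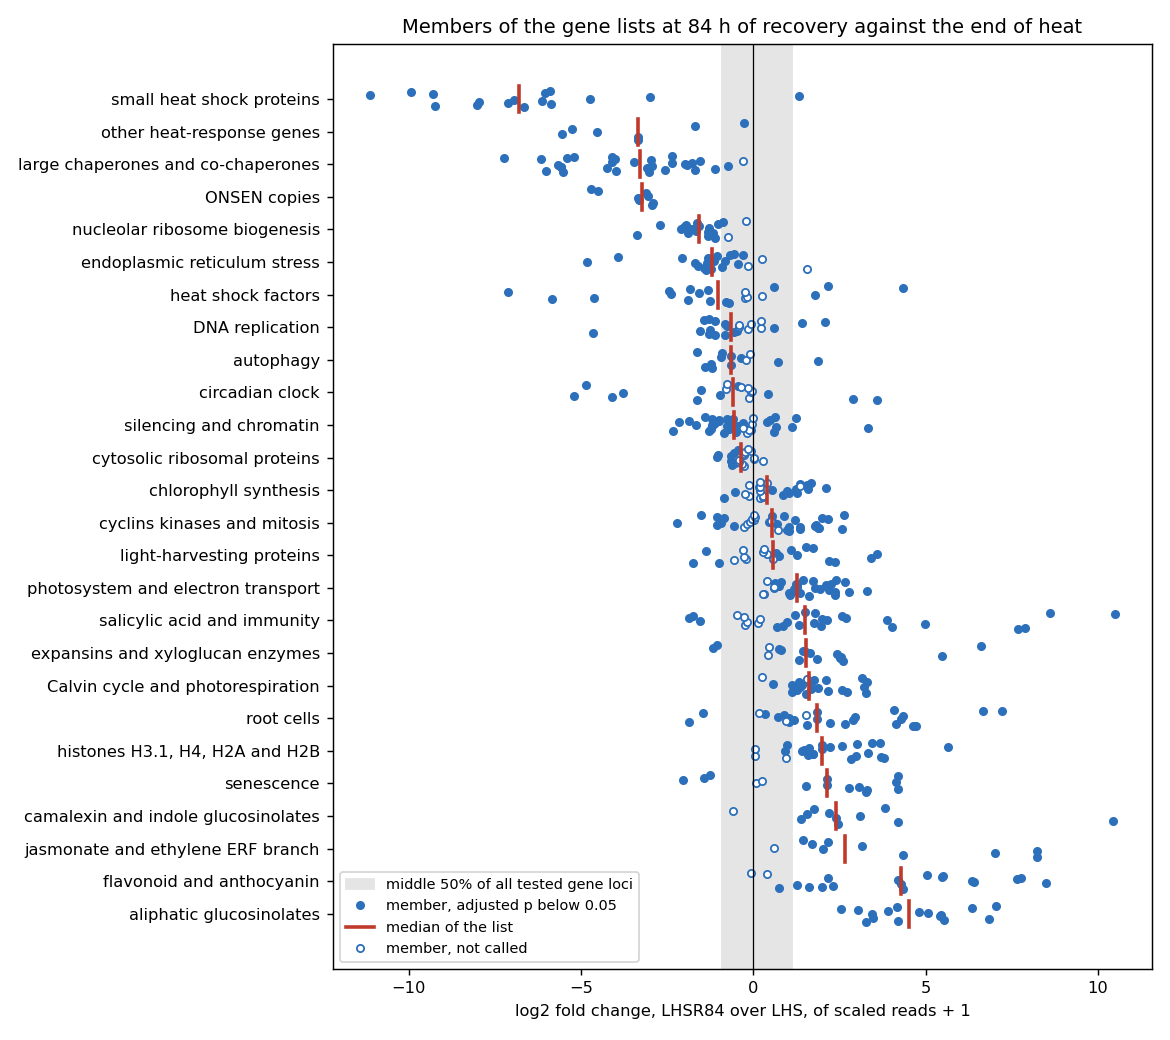
Log2 fold change of LHSR84 over LHS (x axis) for the tested members of 26 gene lists (rows, ordered by median), with filled points for called members, open points for the others, a red bar at each list's median and a grey band for the middle 50% of tested gene loci. Small heat shock proteins sit farthest left, with a median of -6.81, and aliphatic glucosinolate genes farthest right, with a median of 4.51.

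Heat-response genes fell furthest and gave the 3 lowest medians among the 37 gene lists. Of 16 small heat shock protein genes 15 fell and 1 rose, with a median log2 fold change of -6.81. Of 30 large chaperones and co-chaperones 29 fell, with a median of -3.28. CPN60B, a subunit of the chloroplast chaperonin, was the member not called (log2 fold change -0.3, adjusted p = 0.231). All 7 other heat-response genes fell, with a median of -3.36. Leaving out any 1 library left 15 small heat shock protein genes and 28 to 30 chaperone genes lower.

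HSP21 (AT4G27670), the small heat shock protein of the chloroplast, had 54648 and 70342 scaled reads in the LHS libraries and 37.8 and 18.7 in the LHSR84 libraries. The groups did not overlap, which the rule for the largest falls required. The mean was 2210.4-fold lower after recovery (log2 fold change -11.13, standard error 0.31, adjusted p = 1.64e-07). Its level was 6540.1 and 4742 at 12 h and 12.2 and 16.1 in CTRL. At 84 h it lay close to the control range, with a log2 difference from CTRL of 0.88 that was not called (adjusted p = 0.104). HSP23.6-M of the mitochondrion, HSP22-ER of the endoplasmic reticulum and HSP17.6-CII of the cytosol followed, with log2 fold changes of -9.93, -9.31 and -9.24. HSP15.4 went the other way, from 208 and 267 to 571 and 604 scaled reads (log2 fold change 1.31, standard error 0.25, adjusted p = 0.00159). Its LHS libraries were the lowest of the series, below 871 and 486 in CTRL.

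HSP101 (AT1G74310), the disaggregase required for acquired thermotolerance, had 36972 and 41071 scaled reads at the end of heat and 724 and 986 after recovery. That is a 45.6-fold lower mean without overlap (log2 fold change -5.53, standard error 0.25, adjusted p = 7.90e-07), yet both LHSR84 libraries stayed above both CTRL libraries (265 and 462; log2 difference from CTRL 1.27, adjusted p = 0.011). HSA32, a protein that extends the memory of heat, fell from 4837 and 6819 to 136 and 131 (log2 fold change -5.42, standard error 0.2, adjusted p = 4.02e-07). HSA32 was still at 3399.9 and 3275 at 12 h, so 14.5% of its log2 change had occurred by then, against 60.1% for HSP101. HSP90.1, the heat-inducible cytosolic HSP90, fell from 180193 and 235823 to 3014 and 3361 (log2 fold change -6.02, standard error 0.39, adjusted p = 3.92e-06). ROF2, an immunophilin that binds HSP90, made the largest fall of this list, from 176928 and 229487 to 1348 and 1329 (log2 fold change -7.23, standard error 0.28, adjusted p = 4.57e-07), and the co-chaperone HOP3 the next, from 29237 and 37043 to 463 and 461 (log2 fold change -6.15, standard error 0.37, adjusted p = 2.75e-06). HSP90.1, HOP3, HSA32 and ROF2 were each above both CTRL libraries in both LHSR84 libraries.

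Of the heat shock factors, 20 of 21 were tested, 12 fell and 4 rose. HSFA2, the factor that sustains the response in long heat, fell from 3204 and 3198 to 61.4 and 48.3 scaled reads, with 44.4 and 62.6 already at 12 h (log2 fold change -5.85, standard error 0.28, adjusted p = 1.06e-06). HSFA7B fell from 252 and 228 to 0 and 1.97. With only 2 reads over both LHSR84 libraries, the ratio of LHS to LHSR84 was 224 (95% interval 61.5 to 1851), where the exact (Clopper-Pearson) interval covers counting error only, as do the other intervals and bounds below. HSFA3, a target of DREB2A, fell with a log2 fold change of -4.64. The 4 members of the HSFA1 group, the master regulators that act without heat induction, had smaller falls, with log2 fold changes of -1.91, -1.26, -0.79 and -0.72 for HSFA1E, HSFA1D, HSFA1B and HSFA1A. HSFB3, HSFC1, HSFA6A and HSFB4 rose, at 4.36, 2.15, 1.79 and 0.6, and without LHS replicate 2 only 2 factors were called higher. HSFC1 went from 197 and 267 to 1151 and 909 scaled reads and was below its CTRL libraries (661 and 783) at the end of heat.

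GOLS1, the galactinol synthase of the heat response, was no lower at 12 h than at the end of heat in any library. It had 27446 and 31660.5 scaled reads at the end of heat, 39217 and 32093 at 12 h and 872 and 682 at 84 h (log2 fold change -5.26, standard error 0.16, adjusted p = 1.97e-07). DREB2C, an activator of HSFA3, was already low at 12 h, with 3793 and 4264 scaled reads in LHS, 98.8 and 151 at 12 h and 65.0 and 110.5 at 84 h (log2 fold change -5.55, standard error 0.28, adjusted p = 1.27e-06). APX2, a cytosolic ascorbate peroxidase, also kept most of its level for 12 h, with 11074 and 14725 in LHS, 8680.5 and 6904 at 12 h and 56.7 and 25.6 at 84 h (log2 fold change -8.35, standard error 0.39, adjusted p = 9.51e-07). Further genes that fell were FTSH6, a chloroplast protease (1959.8 and 2276 to 4.73 and 6.9), the cullin gene CUL2 (7253 and 7961 to 7.09 and 26.6) and PUM9, a Pumilio RNA-binding protein (398 and 456 to 0 and 6.9). In these 3 genes both LHS libraries were above every other library of the series.

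**Figure D2:**
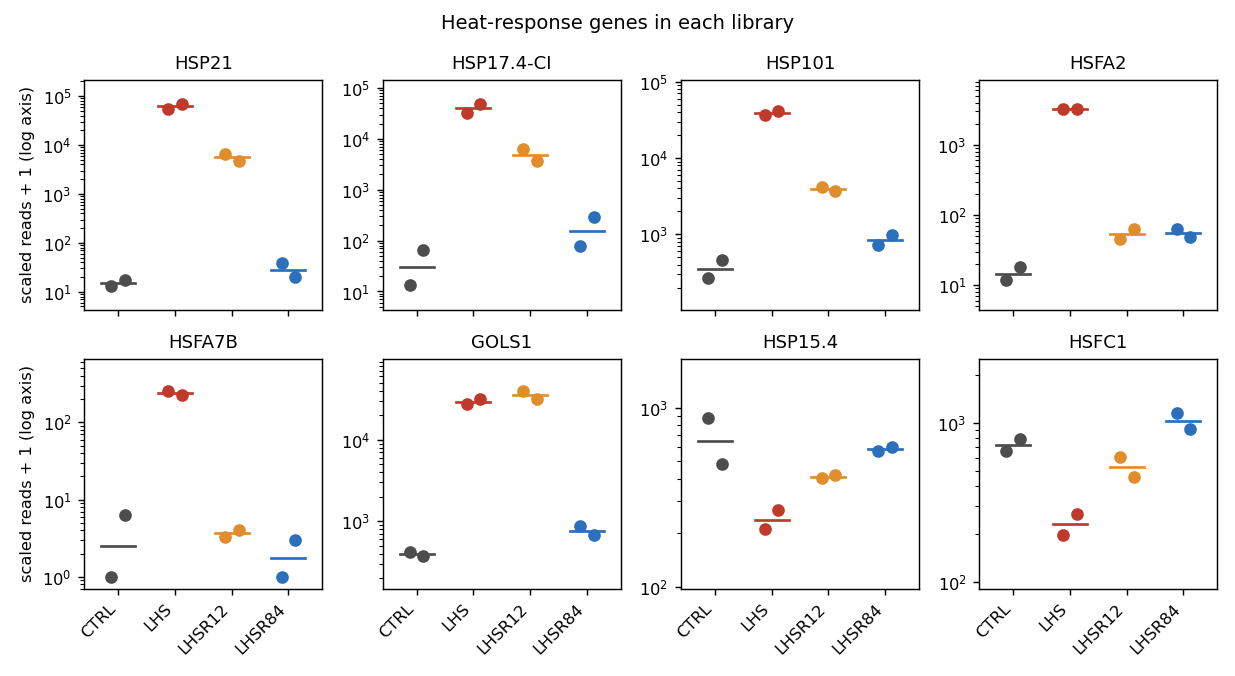
Scaled reads plus 1 (log axis) of 8 heat-response genes in the 2 libraries of each group (points), with a bar at the mean of the log values. HSP21, HSP17.4-CI, HSP101, HSFA2 and HSFA7B peaked in LHS, GOLS1 was as high at 12 h as in LHS, and HSP15.4 and HSFC1 were lowest in LHS.

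Part of this fall can be set beside promoter sequence. The 250 bases before the start of each of 26711 protein-coding genes were read from RefSeq's TAIR10.1 assembly and searched on both strands for GAANNTTCNNGAA, 3 alternating units of the heat shock element. It was found in 105 windows, or 0.393% of them. The windows of the following 5 genes, all of which fell and hold the match, are shown 5′ to 3′ on the gene's strand with the matched bases in capitals (read on the other strand in HSFA7B and PRR7).

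HSP17.4-CI, chr3:16984868-16985117, minus strand: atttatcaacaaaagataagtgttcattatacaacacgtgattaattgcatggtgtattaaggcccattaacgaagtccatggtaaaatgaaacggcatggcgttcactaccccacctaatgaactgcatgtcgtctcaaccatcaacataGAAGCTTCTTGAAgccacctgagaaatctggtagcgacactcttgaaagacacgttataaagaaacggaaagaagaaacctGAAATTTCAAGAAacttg
HSP17.6C-CI, chr1:19980049-19980298, plus strand: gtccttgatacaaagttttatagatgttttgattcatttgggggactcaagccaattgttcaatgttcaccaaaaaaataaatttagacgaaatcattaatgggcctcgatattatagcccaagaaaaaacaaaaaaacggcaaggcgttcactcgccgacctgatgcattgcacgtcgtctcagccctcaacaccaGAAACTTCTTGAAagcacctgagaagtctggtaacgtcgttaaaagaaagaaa
HSFA2, chr2:11135374-11135623, plus strand: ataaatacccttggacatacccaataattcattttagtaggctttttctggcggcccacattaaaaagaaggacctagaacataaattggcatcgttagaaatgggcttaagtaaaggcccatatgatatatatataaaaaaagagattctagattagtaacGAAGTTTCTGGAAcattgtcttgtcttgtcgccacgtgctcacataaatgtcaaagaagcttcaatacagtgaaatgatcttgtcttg
HSFA7B, chr3:23398986-23399235, plus strand: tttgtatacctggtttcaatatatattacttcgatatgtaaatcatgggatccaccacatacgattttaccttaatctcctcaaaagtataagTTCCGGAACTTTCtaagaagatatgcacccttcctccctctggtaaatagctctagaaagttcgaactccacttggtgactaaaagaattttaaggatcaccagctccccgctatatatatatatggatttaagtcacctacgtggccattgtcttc
PRR7, chr5:642031-642280, minus strand: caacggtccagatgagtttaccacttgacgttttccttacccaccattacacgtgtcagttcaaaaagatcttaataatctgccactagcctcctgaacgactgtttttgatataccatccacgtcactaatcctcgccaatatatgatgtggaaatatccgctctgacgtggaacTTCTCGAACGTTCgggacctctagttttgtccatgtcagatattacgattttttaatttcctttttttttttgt

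HSP17.4-CI, a class I cytosolic small heat shock protein, holds 2 matches, at 99 to 87 and 18 to 6 bases before the gene start, and its scaled reads fell from 32411 and 48204 to 78.0 and 293. HSP17.6C-CI holds 1, at 53 to 41 bases, and its log2 fold change was -7.96. The match lies 88 to 76 bases before the start of HSFA2, 157 to 145 before HSFA7B and 74 to 62 before the clock gene PRR7. Among all listed genes the match was also found upstream of HSFA7A, DREB2A and GOLS1, which fell with log2 fold changes of -1.58, -3.36 and -5.26, and of MCM6 and AGO1 (-0.55 and -0.61) and ERF2, which rose (1.45). Of the 105 genes 94 were tested, and 47 (50%) were called lower and 19 higher, with a median log2 fold change of -0.62. Over all 22796 tested genes with a window, 33.8% were lower and 35.5% higher, with a median of 0.02. The shorter GAANNTTC, 2 units, is contained in every longer match and was found in 9.47% of windows. Genes with this shorter match stood near the background, at 34.9% lower and 35.6% higher. HSP21, with the largest fall among listed genes, holds only the shorter match, and 0 of the 30 large chaperones hold the longer one within this window. A match is a description of these letters and not a measured binding site.

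Genes of protein folding in the endoplasmic reticulum fell on a smaller scale. Of 23 genes 20 fell and 0 rose, with a median of -1.2, although only 13 were lower without LHS replicate 2. ERDJ3A, a J-domain protein, fell from 2052 and 2515 to 108 and 59.2 (log2 fold change -4.81, standard error 0.28, adjusted p = 2.47e-06), and NAC103, a transcription factor of the unfolded protein response, from 1048 and 951 to 61.4 and 67.1 (log2 fold change -3.94, standard error 0.25, adjusted p = 3.32e-06). BIP3, the strongly stress-inducible BiP, did not pass the test, with 3.0 and 8.11 scaled reads in LHS and 28.4 and 9.86 in LHSR84 (log2 fold change 1.56, standard error 0.83, adjusted p = 0.126), and its highest libraries of the series were those at 12 h (116 and 107). Without either CTRL library BIP3 was called higher.

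Photosynthesis genes encoded in the nucleus were largely higher at 84 h. Of 31 photosystem and electron transport genes 27 rose and 0 fell, with a median of 1.28. Of 24 genes of the Calvin cycle and photorespiration 22 rose and 0 fell, with a median of 1.61. The largest photosystem rises were those of PSAN, a lumenal subunit of photosystem I, from 1881 and 2237 to 20615 and 19841 (log2 fold change 3.3, standard error 0.19, adjusted p = 2.27e-06), and PSAH2 (2.77). PSAD1, which docks ferredoxin, rose from 4637 and 5516 to 15288 and 15415 (log2 fold change 1.6, standard error 0.17, adjusted p = 5.42e-05) and stayed below both CTRL libraries (42612 and 31231). Carbonic anhydrase CA1 rose from 13196 and 13056 to 135747 and 121142 (log2 fold change 3.29, standard error 0.2, adjusted p = 2.75e-06), above both CTRL libraries (101476 and 81909).

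The small subunit of Rubisco, the enzyme that fixes carbon dioxide, is encoded by a small family. RBCS1B rose from 2257 and 1891 to 21385 and 18216 (log2 fold change 3.26, standard error 0.18, adjusted p = 1.86e-06) and RBCS1A from 89439 and 107020 to 288285 and 273901 (log2 fold change 1.52, standard error 0.29, adjusted p = 0.00159), though RBCS1A was not called without LHS replicate 1 (adjusted p = 0.0523). The copies are alike in sequence and the treatment of reads with several matches is not stated, so the division of reads between them is uncertain. Set against the control, the 84 h medians were -0.91 for the photosystem list and 0.35 for the Calvin cycle list. The leaf mesophyll markers RBCS1A, RBCS1B, CA1, LHCB1.4 and LHCB2.1 summed to 106430 and 124087 scaled reads in LHS, 451980 and 418438 in LHSR84, and 574760 and 459039 in CTRL. Of these 5 markers 4 were called higher and 0 lower. RBCS1A and CA1 made up most of each sum, so the sums say little of the LHCB markers.

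Light-harvesting proteins, which bind chlorophyll around both photosystems, did not move as a block. Of 21 genes 10 rose, 3 fell and 8 were not called, with a median of 0.57. Among the copies of LHCB1, LHCB1.3 rose from 18988 and 27892 to 105382 and 133145 (log2 fold change 2.36, standard error 0.3, adjusted p = 1.70e-04) and LHCB1.4 by 2.21. LHCB1.2 fell from 5557 and 10657 to 1848 and 2797 (log2 fold change -1.76, standard error 0.33, adjusted p = 0.00143). LHCB1.1 had 1432 and 1855 in LHS and 678 and 972 in LHSR84 (log2 fold change -1.0, standard error 0.35, adjusted p = 0.03), and this call was lost without LHS replicate 1, LHS replicate 2, either LHSR12 library or LHSR84 replicate 1. In LHCB1.1, LHCB1.2 and LHCB1.3 the LHS and LHSR84 libraries did not overlap, which held for 20 of the 21 genes, called or not, and so does not set these copies apart. Between these ends LHCB1.1 was high, with 33285 and 40055 at 12 h. The coding sequences of LHCB1.1, LHCB1.2 and LHCB1.3 are 95.6% to 96.4% identical over 804 bases in TAIR10.1, so reads may be divided between them and the levels of single copies are uncertain.

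LHCB1.1 and LHCB1.3 lie near each other on chromosome 1, and the 250 bases before their starts are shown because the copies moved in opposite directions. Capitals mark the exact letters AAAATCT, a form of a binding site of the clock protein CCA1. These letters were searched on both strands and found in 16.5% of all windows. Variant forms of the site are not marked. The LHCB1.1 window holds 1 match, at 77 to 71 bases before the start, and the LHCB1.3 window holds none of these letters. Among the other copies, LHCB1.4, which rose, and LHCB1.5, which was not called, hold 1 match each, and LHCB1.2, which fell, holds 0.

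LHCB1.1, chr1:10475970-10476219, minus strand: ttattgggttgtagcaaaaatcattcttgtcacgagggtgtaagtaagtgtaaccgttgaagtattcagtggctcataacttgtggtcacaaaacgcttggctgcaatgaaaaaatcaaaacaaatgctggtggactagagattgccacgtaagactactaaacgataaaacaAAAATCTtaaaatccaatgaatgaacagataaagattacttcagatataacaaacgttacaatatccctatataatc
LHCB1.3, chr1:10477635-10477884, plus strand: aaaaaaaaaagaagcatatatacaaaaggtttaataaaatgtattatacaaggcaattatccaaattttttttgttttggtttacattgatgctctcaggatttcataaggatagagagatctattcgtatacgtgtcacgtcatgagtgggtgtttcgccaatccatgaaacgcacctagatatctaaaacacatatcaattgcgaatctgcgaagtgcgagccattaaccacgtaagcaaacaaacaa

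LHCB2.3 and LHCB4.3, antenna genes of photosystem II, made the largest rises of the family, and their position against the control differed. LHCB2.3 rose from 43.1 and 35.5 to 362 and 511 (log2 fold change 3.43, standard error 0.36, adjusted p = 5.57e-05) and remained far below CTRL (18823 and 7932). LHCB4.3 rose from 53.1 and 84.2 to 805 and 828 (log2 fold change 3.59, standard error 0.29, adjusted p = 1.17e-05), which is above every other library of the series. LHCA1 of photosystem I fell from 26028 and 33742 to 11251 and 11647 (log2 fold change -1.37, standard error 0.26, adjusted p = 0.00151). The median log2 difference of the family from the control was -2.63 at 84 h.

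**Figure D3:**
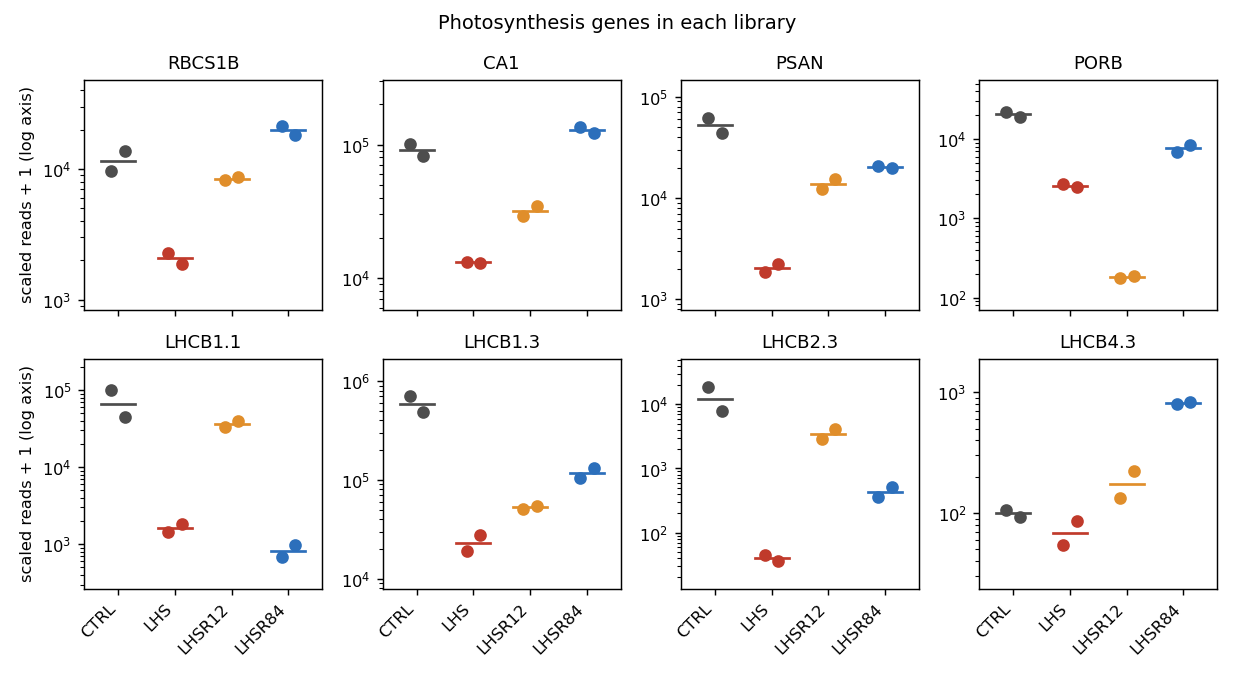
Scaled reads plus 1 (log axis) of 8 photosynthesis genes in the 2 libraries of each group (points), with a bar at the mean of the log values. RBCS1B and CA1 ended above CTRL, PSAN below it, PORB passed through its lowest level at 12 h, and LHCB1.1 and LHCB2.3 were higher at 12 h than at 84 h.

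Chlorophyll synthesis genes rose in part, with 11 of 25 higher, 2 lower and a median of 0.4. GUN4, which activates magnesium chelatase, rose from 405 and 399.6 to 1700.1 and 1783 (log2 fold change 2.11, standard error 0.15, adjusted p = 5.84e-06), and CHLG, chlorophyll synthase, from 835 and 846 to 2679.6 and 2666 (log2 fold change 1.67, standard error 0.09, adjusted p = 1.46e-06). PORB, a protochlorophyllide oxidoreductase, rose from 2674 and 2481 to 6952 and 8349 (log2 fold change 1.56, standard error 0.12, adjusted p = 1.06e-05) after a low of 178 and 188 at 12 h. HEMA2 and HEMF1, of tetrapyrrole synthesis, fell with log2 fold changes of -0.86 and -0.53. Of 10 chlorophyll breakdown genes 5 rose and 3 fell. CLH1, a chlorophyllase, rose from 411 and 274 to 2885 and 2771 (log2 fold change 3.07, standard error 0.27, adjusted p = 2.06e-05), and PPH, pheophytinase, fell from 2522 and 2359 to 1224 and 1060.3 (log2 fold change -1.1, standard error 0.14, adjusted p = 1.75e-04). Only 1 of the 3 falls remained called without LHS replicate 1, LHSR84 replicate 1 or LHSR84 replicate 2, or with TMM scaling, and 3 rises without LHSR84 replicate 1.

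Senescence-associated genes were mostly higher. Of 15 tested 10 rose, also with any 1 library left out, and 3 fell, 1 without LHS replicate 1, with a median of 2.14. Set against the control, the median log2 difference of the list was 0.02 at the end of heat and 0.53 at 84 h. ORE1 and NAP, transcription factors that promote leaf ageing, rose by 3.29 and 3.26, and SEN1 from 49.1 and 53.8 to 1096 and 851 (log2 fold change 4.21, standard error 0.77, adjusted p = 0.0013). SEN1 had 2423 and 309 in CTRL, so its LHSR84 libraries lay within the control range. JUB1, a factor that delays ageing, rose from 2.0 and 5.07 to 60.3 and 97.6 (log2 fold change 4.19, standard error 0.54, adjusted p = 1.73e-04). SAG29 fell from 224 and 197 to 57.9 and 43.4 (log2 fold change -2.05, standard error 0.17, adjusted p = 1.48e-05), but its highest libraries were at 12 h (5995 and 5501). SAG12, a protease gene expressed in late senescence, had too few reads to be tested. Of 14 genes of sugar starvation and branched-chain amino acid breakdown, 7 rose. Only 1 rose without LHS replicate 1, 3 without LHS replicate 2 or either LHSR12 library, and 4 without either LHSR84 library. DIN2, a beta-glucosidase gene, had 49.1 and 61.9 in LHS and 151 and 2144 in LHSR84. Its call was lost without any 1 of the LHS or LHSR12 libraries, and with only the LHS and LHSR84 libraries fitted. Of 13 autophagy genes 9 fell and 2 rose, 1 when any 1 of the LHS, LHSR12 or LHSR84 libraries was left out, with a median of -0.65. ATG18A fell from 720 and 632 to 203 and 226 (log2 fold change -1.65, standard error 0.19, adjusted p = 9.89e-05), and ATG8F rose from 665 and 566 to 2506 and 2029 (log2 fold change 1.88, standard error 0.25, adjusted p = 2.02e-04).

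Genes of cell division and DNA packing were mostly higher at 84 h, and more of those for DNA replication were lower than higher. Of 35 cyclin, kinase and mitosis genes 19 rose and 7 fell, with a median of 0.55. CYCB1;2, a mitotic cyclin, had 153 and 175 scaled reads in LHS, 193 and 217 at 12 h and 900.3 and 1087 at 84 h (log2 fold change 2.59, standard error 0.16, adjusted p = 2.77e-06). The LHSR84 libraries lay near CTRL (1103 and 1344), and most of the rise came after 12 h. TPX2, a spindle protein, rose from 207 and 217 to 1161 and 1521 (log2 fold change 2.64, standard error 0.18, adjusted p = 4.51e-06), and KNOLLE, needed for the cell plate, by 2.16. CDKB2;1, a mitotic kinase, rose by 0.53, a call lost without LHS replicate 1, LHS replicate 2 or LHSR84 replicate 2. The D-type cyclin CYCD3;3 fell from 1082 and 943 to 196 and 239.7 (log2 fold change -2.21, standard error 0.18, adjusted p = 1.11e-05).

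Histone genes rose as a group. Of 25 genes for replication-coupled H3.1, H4, H2A and H2B, 22 rose and 0 fell, also with any 1 library left out, and the median was 1.98. Of the H3.1 genes, H3.1-2 rose from 201 and 222 to 2672 and 3279 (log2 fold change 3.8, standard error 0.22, adjusted p = 2.18e-06). H3.1-4, H3.1-5 and H3.1-1 rose by 3.7, 2.99 and 2.85, and H3.1-3, with 7.01 and 3.04 scaled reads in LHS and 5.91 and 16.8 in LHSR84, did not pass the test (log2 fold change 0.96, standard error 0.6, adjusted p = 0.188). H4-a had the largest change, from 8.01 and 3.04 to 248 and 366 (log2 fold change 5.65, standard error 0.4, adjusted p = 6.08e-06). Histone genes of a class have near-identical coding sequences, so the division of reads between them is uncertain.

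Of 22 DNA replication genes 13 fell and 3 rose, with a median of -0.66, and 8 fell without LHS replicate 1. MCM5, a subunit of the replicative helicase, stood apart from the other subunits. It fell from 20371 and 19864 to 704 and 895 scaled reads (log2 fold change -4.66, standard error 0.15, adjusted p = 2.77e-07), while MCM2, MCM3, MCM4, MCM6 and MCM7 fell with log2 fold changes of -1.11, -0.83, -1.29, -0.55 and -0.47. By 12 h MCM5 was at 956 and 999, near CTRL (886 and 1156). TSO2, a ribonucleotide reductase subunit, rose from 412 and 321 to 1324 and 1776 (log2 fold change 2.07, standard error 0.21, adjusted p = 4.30e-05).

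Genes of ribosome assembly in the nucleolus fell. Of 21 genes 19 fell and 0 rose, with a median of -1.58. NUC-L2, a nucleolin, fell from 2162 and 2157 to 213 and 203 (log2 fold change -3.37, standard error 0.19, adjusted p = 2.03e-06), and SWA3, an RNA helicase, from 2075 and 2204 to 343 and 315 (log2 fold change -2.7, standard error 0.17, adjusted p = 3.43e-06). For NUC-L2 both LHSR84 libraries were above both CTRL libraries (77.2 and 107), and for SWA3 both were below them (368 and 514). Of 20 cytosolic ribosomal proteins 8 fell and 0 rose, with a median of -0.37, near the background share of 34.5%. Without LHS replicate 1 only 2 fell, and without LHSR84 replicate 1 only 3.

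Defence genes rose, some from almost no reads. Of 29 genes of salicylic acid signalling and immunity 20 rose and 3 fell, with a median of 1.49 (1.33 with genes without reads at their bound), and 1 fell without LHS replicate 2. LURP1, needed for resistance to downy mildew, had 0 and 3.04 scaled reads in LHS, 1605 and 1151 at 12 h and 2864 and 2961 at 84 h. On 3 reads in LHS the ratio was 1929.5 (95% interval 659.9 to 9359). ACD6, a membrane protein that activates salicylic acid defence, rose from 14.0 and 22.3 to 7475 and 7279 (log2 fold change 8.62, standard error 0.26, adjusted p = 1.97e-07), against 157 and 94.4 in CTRL. LHS and LHSR84 libraries did not overlap in these genes, which the rule for the largest rises required. CTRL and LHSR84 libraries did not overlap in them either.

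PR1, a marker of salicylic acid responses, had 1.0 and 3.04 scaled reads in LHS, 1022 and 991 at 12 h and 431 and 796 at 84 h (log2 fold change 7.69, standard error 0.5, adjusted p = 3.91e-06). PR2, a glucanase, had 0 and 1.01 in LHS, 816 and 794 at 12 h and 491 and 228 at 84 h, a ratio of 690.2 (95% interval 123 to 27305) on 1 read in LHS. Both were higher at 12 h than at 84 h in every library, but this difference was not called. The log2 difference of 84 h from 12 h was -0.78 for PR1 (adjusted p = 0.263) and -1.26 for PR2 (adjusted p = 0.0677). Both were at or near 0 in CTRL (0 and 1.07 for PR1 and 4.06 and 3.22 for PR2), so the 84 h level was also above the unheated seedlings, with a log2 difference from CTRL of 8.67 for PR1 (adjusted p = 4.05e-05). ICS1, the enzyme of salicylic acid synthesis, rose by 0.7, and the regulators CBP60G and WRKY70 by 4.98 and 3.88. NPR1, the salicylic acid receptor, was not called (log2 fold change 0.14, standard error 0.15, adjusted p = 0.439). WRKY18 fell from 2063 and 2348 to 599 and 615 (log2 fold change -1.86, standard error 0.13, adjusted p = 6.59e-06).

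The branch of jasmonate and ethylene signalling that acts through ERF factors rose in 9 of 10 genes, with a median of 2.66 (2.38 with genes without reads at their bound). PDF1.2A, the defensin used as its marker, had 0 reads in every CTRL, LHS and LHSR12 library and 266 and 339 scaled reads in LHSR84. With a floor of 3 reads per library its level was at least 100.1-fold higher at 84 h. PDF1.3 had 2.0 and 0 in LHS and 533 and 517 in LHSR84, a ratio of 520.1 (95% interval 144 to 4301), and was also at 0 in CTRL and at 12 h. Both defensins thus appeared between 12 h and 84 h. The defensin copies are close in sequence, so reads may be divided between them. In the MYC2 branch and in jasmonate synthesis, 8 of 16 genes rose and 2 fell, 1 without LHS replicate 1. VSP1, a storage protein and marker of this branch, rose from 111 and 56.8 to 461 and 612 (log2 fold change 2.72, standard error 0.37, adjusted p = 2.46e-04), and VSP2 was not called, with 795 and 594 in LHS and 1669 and 1977 in LHSR84 (log2 fold change 1.4, standard error 0.61, adjusted p = 0.0714). Without either CTRL library VSP2 was called higher.

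Glucosinolates are sulphur compounds that deter herbivores. All 16 genes of the aliphatic branch rose, with any 1 library left out as well, and their median of 4.51 was the highest of the lists. CYP79F1, which starts the branch, had 137 and 40.6 scaled reads in LHS and 9641 and 7953 in LHSR84 (log2 fold change 6.85, standard error 0.48, adjusted p = 5.47e-06). AOP2, another gene of this list, had 22.0 and 1.01 in LHS and 932 and 852 in LHSR84 (log2 fold change 7.03, standard error 0.9, adjusted p = 1.57e-04). The regulators MYB28, MYB29 and MYB76 rose by 3.26, 4.2 and 5.53. For CYP79F1 the 2 LHS libraries differed severalfold from each other and were still far below all other libraries, CTRL included (2300.1 and 3937). By 12 h 93.6% of the log2 change of CYP79F1 was in place.

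Of 11 genes for camalexin, an indole defence compound, and indole glucosinolates, 10 rose, with a median of 2.39. CYP71A13, which makes the precursor of camalexin, rose and fell again within the recovery, from 0 and 1.01 to 1342 and 2842 at 12 h and 17.7 and 34.5 at 84 h. On 1 read in LHS the ratio of 84 h to the end of heat was 53.3 (95% interval 9.14 to 2148). CYP71A12, its near copy, had 0 reads in LHS and 392 and 4873 scaled reads in LHSR84, at least 871-fold higher on the mean. That mean rests largely on LHSR84 replicate 2.

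Flavonoid and anthocyanin genes rose in 17 of 19 cases, with a median of 4.28 (4.2 with genes without reads at their bound). DFR, which commits to anthocyanins, had 4.01 and 0 scaled reads in LHS and 613 and 1037 in LHSR84 (log2 fold change 8.48, standard error 0.97, adjusted p = 8.16e-05). The acyltransferase 5MAT had 0 reads in LHS and 165 and 286 in LHSR84, at least 74.7-fold higher. The early enzymes CHS and CHI rose by 1.62 and 1.98, and LDOX, which like DFR acts late, by 6.41. These differences between genes were not tested. PAP1 and PAP2, the MYB activators of the late steps, rose by 2.16 and 5.46, and MYB12 and MYB111, activators of the early steps, were not called.

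**Figure D4:**
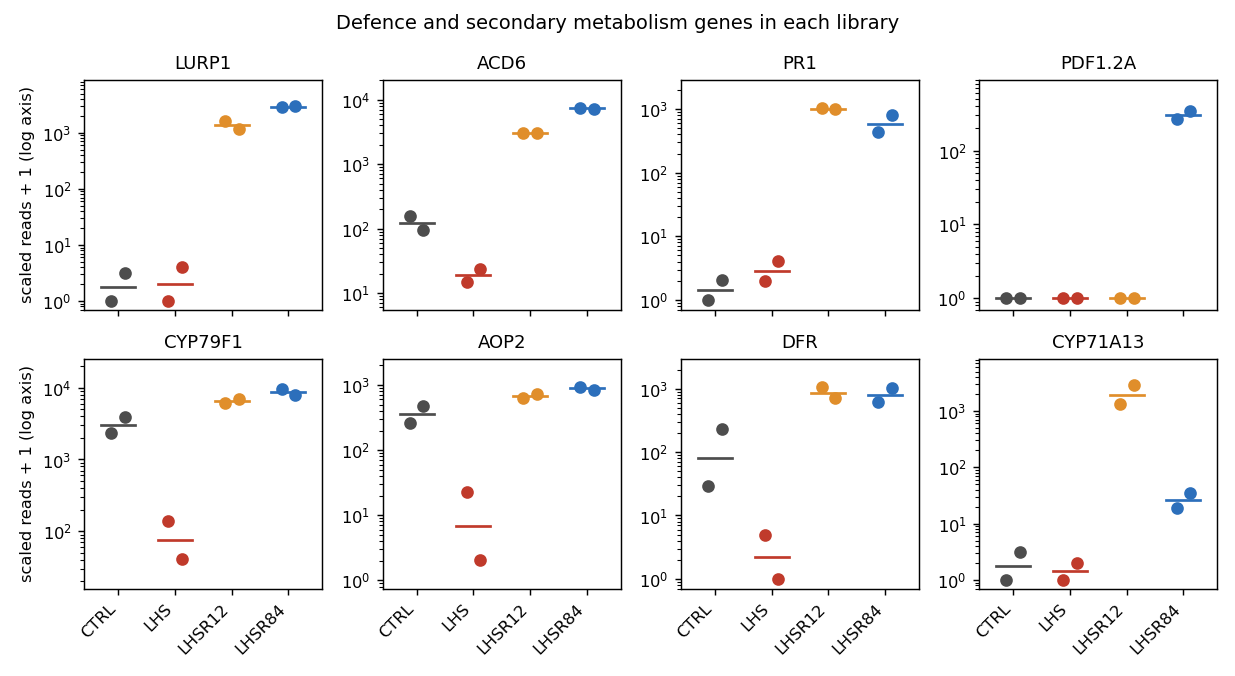
Scaled reads plus 1 (log axis) of 8 defence and secondary metabolism genes in the 2 libraries of each group (points), with a bar at the mean of the log values. All 8 were lower in both LHS libraries than in both LHSR84 libraries, PDF1.2A had reads only in LHSR84, and CYP71A13 was highest at 12 h.

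Of 26 genes of abscisic acid and cold responses 8 were higher (30.8%) and 9 lower (34.6%), near the background of 34.1% and 34.5%, so the list did not stand apart in number. KIN1 fell from 7516 and 5381 to 214 and 317 (log2 fold change -4.61, standard error 0.33, adjusted p = 6.29e-06) and RD29B, another dehydration-induced gene, from 261 and 171 to 27.2 and 10.8 (log2 fold change -3.54, standard error 0.47, adjusted p = 2.01e-04). COR15A and COR15B, which protect chloroplast membranes, rose by 3.91 and 4.5. Of 19 genes of reactive oxygen metabolism 10 fell and 4 rose. The copper/zinc superoxide dismutase CSD2 fell from 2348 and 2153 to 489 and 435 (log2 fold change -2.28, standard error 0.13, adjusted p = 1.88e-06). The oxidase RBOHD, which produces superoxide in immunity, rose from 636 and 555 to 3373 and 3485 (log2 fold change 2.53, standard error 0.13, adjusted p = 1.19e-06), and catalase CAT3 from 8014 and 7623 to 35162 and 34704 (log2 fold change 2.16, standard error 0.15, adjusted p = 4.51e-06). FAD8, the fatty acid desaturase known to decline at high temperature, rose from 155 and 194 to 2486 and 2363 (log2 fold change 3.8, standard error 0.17, adjusted p = 7.74e-07), and 2 of 6 desaturases rose in all, 1 without LHS replicate 2.

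Growth genes of the cell wall rose. Of 17 expansins and xyloglucan enzymes 13 rose and 2 fell, with a median of 1.54. EXPA8 rose from 27.0 and 38.5 to 1616 and 1329.6 (log2 fold change 5.46, standard error 0.21, adjusted p = 4.59e-07), and XTH20 from 2.0 and 0 to 190.2 and 151, a ratio of 167 (95% interval 46.0 to 1389). XTH18 and XTH22 fell with log2 fold changes of -1.18 and -1.05, and XTH22 was not called without any 1 of the LHS, LHSR12 or LHSR84 libraries. Of 7 genes of cellulose synthesis 3 rose and 1, COB, fell. Of 19 aquaporins 10 rose, 6 without LHS replicate 1, and 4 fell, with TIP4;1 at 5.53 and PIP2;3 at -2.41. Of 22 auxin genes 7 fell and 4 rose, 31.8% lower against a background of 34.5%. Without LHS replicate 1 only 2 auxin genes fell, and without LHS replicate 2 or LHSR84 replicate 1 only 3.

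Clock genes moved in both directions, with 3 of 18 higher and 8 lower. PRR7, a repressor of the morning genes, fell from 3409.8 and 3917 to 89.8 and 108 (log2 fold change -5.2, standard error 0.26, adjusted p = 1.31e-06), and LNK1, a coactivator of clock factors, from 2924 and 3298 to 112 and 101 (log2 fold change -4.86, standard error 0.13, adjusted p = 1.19e-07). LHY, a morning factor, rose from 37.1 and 32.5 to 423 and 430 (log2 fold change 3.58, standard error 0.25, adjusted p = 5.44e-06), while its partner CCA1 fell from 276 and 316 to 95.7 and 91.7 (log2 fold change -1.65, standard error 0.22, adjusted p = 1.93e-04). TOC1, an evening factor, had 3128 and 3328 in LHS and 4517 and 4119.9 in LHSR84 (log2 fold change 0.42, standard error 0.12, adjusted p = 0.0133), a call lost without LHS replicate 1 or LHSR84 replicate 1. At 12 h CCA1 had 7531 and 8229 scaled reads and LHY 12504 and 13841, far above the LHS and LHSR84 libraries. The labels give no time of day or light regime. By their recovery times, LHSR84 and LHS were 84 h apart, and LHSR84 and LHSR12 72 h apart. If heat ended at the same clock time in these groups, which no label states, LHSR84 and LHS were 12 h apart in clock time. LHSR84 and LHSR12 were then at the same clock time. A daily rhythm and the recovery therefore cannot be told apart between LHS and LHSR84, in these genes or in any other list here. The harvest time of CTRL is not given either, so a daily rhythm also cannot be told apart where LHSR84 is set against CTRL. In that comparison PRR7 and LHY had log2 differences of -5.25 and 2.42 and were called, and CCA1 (0.38) was not.

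Genes of silencing and chromatin were more often lower, with 23 of 38 lower, 8 higher and a median of -0.55. Without LHSR84 replicate 2, 5 were higher. VIM1, which maintains DNA methylation with MET1, fell from 4786 and 5242 to 900.3 and 1118 (log2 fold change -2.32, standard error 0.18, adjusted p = 9.39e-06), AGO6 of RNA-directed DNA methylation had a log2 fold change of -2.16, and MET1 itself was not called (log2 fold change -0.19, standard error 0.14, adjusted p = 0.232). ROS1, a DNA demethylase, rose from 153 and 218 to 1715 and 2002 (log2 fold change 3.33, standard error 0.19, adjusted p = 2.18e-06), above both CTRL libraries (964 and 1204). SDC, a gene silenced by DNA methylation, had 64.1 and 112 in LHS and 30.7 and 55.2 in LHSR84 (log2 fold change -1.02, standard error 0.37, adjusted p = 0.0385), with its highest libraries at 12 h (368 and 372). The SDC call was lost without LHS replicate 2, either LHSR12 library or LHSR84 replicate 1, and with only the LHS and LHSR84 libraries fitted.

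All 8 ONSEN copies fell, with a median of -3.22, and they remained far above the control. ONSEN-5, taken as an example, had 241293 and 332165 scaled reads in LHS, 119238 and 96419.6 at 12 h, 37913 and 30850 at 84 h and 77.2 and 217 in CTRL (log2 fold change -3.05, standard error 0.41, adjusted p = 2.20e-04). After 84 h the median of the 8 copies was 7.79 above CTRL on the log2 scale, where small heat shock proteins were at 1.92 and large chaperones at 0.32. Without LHS replicate 2 the fall of ONSEN-4 was not called (adjusted p = 0.0662). The copies are close in sequence, and the division of reads between them is uncertain.

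Among all element loci 1612 of 3014 were called (53.5%), 477 higher (15.8%) and 1135 lower (37.7%), with a median of -0.65. The 8 ONSEN copies above are listed under gene identifiers, so they count as gene loci and not in these numbers or in the share below. Their summed scaled reads were 575408 and 838338 in LHS and 90676 and 69596 in LHSR84. The element share of all scaled reads was 3.58% and 4.39% in LHS, 1.1% and 0.99% in LHSR84, and 0.59% and 0.63% in CTRL, so the LHSR84 libraries lay between the other groups without overlap. The largest fall was that of AT1TE47705, from 5841 and 7372 to 2.36 and 0 scaled reads, a ratio of 6141 (95% interval 1699.6 to 50710.2). AT5TE45060 and AT1TE43225 followed, at -11.31 and -11.28. The largest rise was that of AT1TE71830, from 0 in both LHS libraries to 739.6 and 651, at least 230-fold. AT1TE71830 had 347 and 379 scaled reads in CTRL. Reads of a gene that contains or adjoins an element cannot be told apart from reads of the element here.

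Markers of organs and cell types moved with the comparison. Of 26 root markers 21 rose and 2 fell, 1 when any 1 of the LHS or LHSR84 libraries was left out, with a median of 1.85. Their summed level was 7574 in both LHS libraries, 109091 and 102383 in LHSR84, and 108212 and 133031 in CTRL, with 0 markers at 0 in these libraries. BGLU21 and BGLU22, root beta-glucosidases close in sequence, led the rise, with BGLU21 going from 19.0 and 38.5 to 3738 and 4590.3 (log2 fold change 7.2, standard error 0.3, adjusted p = 6.10e-07). IRT1 and FRO2, the iron uptake genes of the root, rose by 4.73 and 4.63. bHLH38 and BHLH100, factors of the iron deficiency response, also rose, both from 0 reads in LHS. In LHSR84 bHLH38 had 159 and 557 scaled reads, at least 119-fold higher, and BHLH100 had 317 and 865, at least 195-fold higher. WOX5, which marks the centre of the root meristem, fell from 32.0 and 56.8 to 11.8 and 18.7 (log2 fold change -1.46, standard error 0.46, adjusted p = 0.0215), a call lost without LHS replicate 2 or LHSR84 replicate 1.

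Of 10 genes of the stomatal lineage 7 rose and 0 fell, with any 1 library left out as well, with a median of 1.1. SDD1, a protease of the lineage, rose from 11.0 and 22.3 to 219.8 and 237 (log2 fold change 3.77, standard error 0.31, adjusted p = 1.29e-05). Their summed level was 1143 and 1447 in LHS and 2563 and 2776 in LHSR84. Of 11 tested seed markers 2, EM6 and ABI3, fell and 0 rose although the median was 0.69, and 0 to 2 were called in either direction when 1 library was left out. Summed seed markers were 869 and 93.3 in LHS and 551 and 271 in LHSR84, so the groups overlapped. The part of any shift in tissue makeup in the changes above was not tested.

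The change from the end of heat to 84 h was placed in time with the 12 h libraries. Of the 8399 gene loci that rose, the 12 h mean lay between the ends at 58.5%, beyond the 84 h mean at 32.0% and on the far side of the heat mean at 9.51%. Of the 8489 that fell, these shares were 66.7%, 25.3% and 8.01%. Group means were compared here without a test, so a locus near its 84 h level by 12 h can fall on either side. DFR, at 101.2% of its log2 change by 12 h, counts as beyond (84 h against 12 h, limma adjusted p = 0.952). The median gene had made 78.1% of its rise or 75.6% of its fall on the log2 scale by 12 h. The lists differed in this respect. Aliphatic glucosinolate genes gained a median of 4.2 by 12 h and 0.27 from then to 84 h, and nucleolar genes fell by 1.27 and then fell by 0.29. Small heat shock proteins fell by a median of 2.91 by 12 h and fell by 4.99 afterwards. Cyclin and mitosis genes changed by a median of -0.56 in the first 12 h and of 1.36 in the following 72 h. Salicylic acid genes rose by 2.26 and then changed by -0.87. These medians share libraries between the 2 intervals and were not tested against each other.

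**Figure D5:**
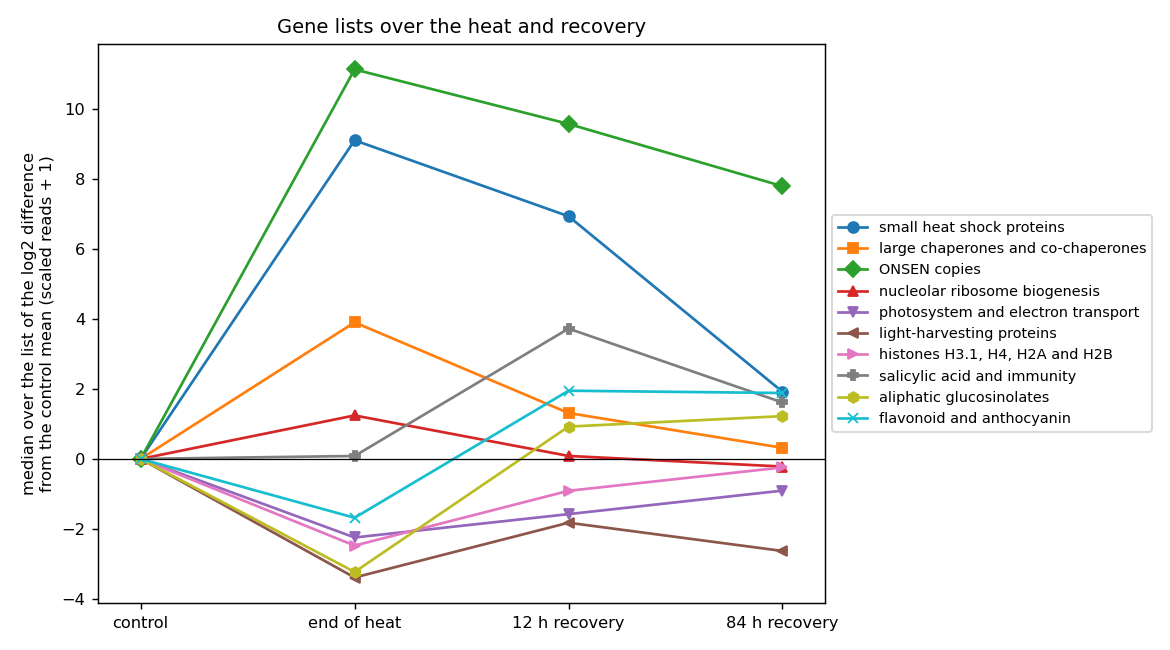
Median over the tested members of 10 gene lists of the log2 difference from the CTRL mean (y axis), in CTRL, at the end of heat, at 12 h and at 84 h of recovery (x axis, evenly spaced and not to scale in time). At 84 h the ONSEN copies stayed highest, at 7.79, and light-harvesting genes lowest, at -2.63.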

How the data were processed

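RNA-seq of 8 libraries was described per the labels as strand-specific, from TRIzol total RNA. Per the submitters' processing notes, the tools were STAR 2.5.3a, DESeq2 1.14.1, HTSeq 0.9.1 and CASAVA, with the build TAIR10 and no roles stated. The strand setting of the counting and the handling of multiply matching reads are not given in the sources used here. The deposited table holds a signal per locus and library, named scaled reads here: 100% of nonzero values in every library were whole multiples of its smallest value (tolerance 0.001), so the authors divided read counts by a factor per library. Reads were recovered for 7 libraries. In LHS replicate 1 the factor is too close to 1 for the recovery to be checked, so this library is left out of edgeR and DESeq2. Its reads enter the ratios and bounds below, and the low read numbers printed for LHS, as its values divided by its smallest nonzero value.

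What follows was computed from that table in R 4.3.3. limma 3.58.1 (limma-trend, not robust) was fitted to log2 of the value plus 1 over all 8 libraries, with a mean per group (4 residual degrees of freedom), for loci with a mean of at least 1. Tests were two-sided contrasts, with Benjamini-Hochberg adjustment over all 27638 loci. No set test was made. Ratios for genes with 1 to 3 reads in a group have exact 95% intervals, and genes at 0 have a bound from a floor of 3 reads per library. Both cover counting error only.

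On simulated reads for LHSR84 against LHS (27638 loci), sets of 50 loci were changed by known amounts, and the share limma called was 12% for 1.5-fold, 70% for 2-fold, 98% for 4-fold and 100% for 8-fold. False calls numbered 4 of 144. Far fewer loci were changed in the simulation than were called in the data, and every locus had the same dispersion (0.0216). These shares therefore need not hold for the data. Alternatives were another pseudocount, filters, thresholds, scalings, the replicate number as a block, only the 2 groups compared, each library left out, and, on the recovered reads of 7 libraries, DESeq2 1.42.0 and edgeR 4.0.16, where edgeR called 7454 gene loci higher and 6791 lower. Replicates differed beyond sampling noise in the 3 groups with recovered reads.

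The comparison, the 37 gene lists and the rule for named genes were chosen with earlier results of these data known, so they are described and not tested as sets. Named were the 10 largest rises and falls among called genes with a symbol, a mean of at least 100 scaled reads over the 2 groups and libraries that do not overlap, the 2 largest called rises and falls of each list, genes whose role is described, and 5 elements per direction. Other members given as examples were chosen after their values were seen. Not every gene the rule named is given in the text. Gene loci were matched by identifier to RefSeq (TAIR10.1), where 32835 were found, and promoter windows were read from that assembly with its own coordinates. Element loci are known by identifier only.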

Additional observations from a re-analysis of the deposited data

How the results depend on the processing

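The counts of called gene loci moved by less than 1.5 times under all alternatives but one: with at least 2-fold required, 5270 were lower. Element counts were less stable. With a mean of at least 10, 562 element loci were lower. On the reads of 7 libraries, edgeR called 314 element loci higher and 717 lower, and DESeq2 261 and 495. For gene loci edgeR called 7454 higher and 6791 lower, and DESeq2 6764 and 6527. With TMM scaling, which shifted the median of gene loci by 0.06, 8817 were higher and 8001 lower. Leaving out 1 library gave 7156 to 8717 gene loci higher and 7055 to 8846 lower, 383 to 492 element loci higher and 918 to 1144 lower, and 459 to 569 list members called in either direction, against 539 with all libraries. The numbers of the replicates did not pair the samples, with correlations of their deviations from the group means between -0.06 and 0.04. With the replicate block, 8343 gene loci were higher and 8439 lower, and 468 and 1126 element loci, and none of the 157 named genes and elements changed its call. Of these 157, 128 kept their call under all 19 alternatives and 0 changed direction. The cause of these differences was not tested. In simulation 12% of loci changed 1.5-fold were called. Far fewer loci were changed there than were called in the data, so that share does not measure what was missed here.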
